A study of Drosophila melanogaster with 6 samples.

Results

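The Hox genes and the segmentation and organ selector genes that act with them form a set of 33 developmental regulators, chosen by name and looked up by FlyBase symbol. The set has 7 Hox genes, 2 Hox cofactors, 7 pair-rule genes, 4 segment polarity genes, 6 genes of appendage and wing fields, 4 genes of the eye network and 3 genes of the mesoderm. A row was found for 32 of the 33 among the 17807 genes measured, and h was not analysed here. RNA was sequenced from GFP-positive cells sorted from adult Drosophila melanogaster midguts, with 70 guts and at most 100000 sorted cells per library. They are progenitors, that is, intestinal stem cells together with the enteroblasts they give rise to, and the comparison asks what a knockdown of the linker histone H1, which binds DNA between nucleosomes, does to gene expression in them. All 6 libraries carried esgts, a temperature-sensitive driver active in esg-expressing cells, with UAS-GFP. The 3 control libraries carried nothing further by their labels, and the 3 H1 RNAi libraries added UAS H1 RNAi 1, a single RNA interference construct. For the shift to 29 °C that starts the driver, the sample labels state 4 days. A protocol text written around Dam expression instead states 18 °C until flies were 3 days old and then 1 day at 29 °C, and the conflict could not be resolved here. The labels do not say whether replicates A, B and C came from separate crosses, so the p-values below measure only how these libraries spread, and part of that spread may be technical.

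Hox genes encode homeodomain transcription factors that give each body segment its identity, and segmentation genes lay down the segments beforehand in the embryo. Selector genes such as ey, Dll and tin set up whole organs. Outside the cells that need them, these genes are held silent by Polycomb group proteins, which modify histones and compact chromatin, while Trithorax group proteins keep them active where they are needed. In the gut, Hox genes and their cofactors are best known from the embryo, where they pattern the visceral mesoderm and, through lab, the copper cells of the middle midgut.

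Expression was deposited as TPM (transcripts per 1000000, a length-scaled abundance), so sequencing depth is unknown and levels can be compared between genes. Between 7767 and 8316 genes per library reached 1 TPM. The labelled cell type was checked on the 5 progenitor markers with a row, klu, mira, Sox21a, Sox100B and E(spl)mbeta-HLH, whose summed level was 1920 to 2270 TPM in the controls and 2060 to 2230 TPM in H1 RNAi. The markers esg, Dl and hdc were not analysed here. Markers of differentiated gut cells were present as well. The 7 markers of enterocytes summed to 403 to 912 TPM in the controls and 552 to 1260 TPM in H1 RNAi. The 7 markers of enteroendocrine cells summed to 2270 to 3050 TPM in the controls and 1020 to 1530 TPM in H1 RNAi. The marker sums do not measure the purity of the sort. The RNAi target could not be checked, because all 23 His1 copies were listed at 0 in all 6 libraries and BigH1 at 0.07 TPM or less. The control B library stood apart in the yolk protein gene Yp1 and in the summed ovary markers. The yolk protein gene Yp1, made in fat body and ovary, was at 43.52 TPM in control B and at 0.83 TPM or less in the other 5 libraries. The 4 ovary markers summed to 5.67 TPM there and to 0.51 to 1.49 TPM elsewhere, and 3 of the 4 stayed under 1 TPM in every library. Other tissue lists did not set control B apart. Its sums for visceral muscle (6.22 TPM), trachea (16.7 TPM) and hemocyte markers (1.26 TPM) lay within the range of the other libraries. In bulk samples such as these, fewer cells of a type and less RNA per cell cannot be told apart.

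The set was nearly silent in both groups. Few of its genes were high enough to test, and of the 3 in a standard test, which called 2.83% of all genes tested, and the 10 in a low-level test, which called 1.8%, none passed in either direction. Of the 32 genes, 6 were listed at 0 in every library, 15 stayed under 0.1 TPM in every library and 28 stayed under 1 TPM in every library. Over all measured genes 23.0% were at 0 throughout and 50.0% stayed under 1 TPM throughout, against 18.8% and 87.5% of the set. Only exd, odd and hh reached 1 TPM in every library. Per library, 19 to 23 of the 32 genes were above 0 in the controls and 20 to 22 in H1 RNAi. The summed level of the 32 genes was 63.3, 68.4 and 70.1 TPM in control A, B and C and 69.5, 67.5 and 62.6 TPM in H1 RNAi A, B and C, so the groups overlapped as deposited. The overlap was lost with scaling between libraries. With TMM scaling the sums were 64.4, 70.6 and 77.7 for the controls and 63.5, 63.0 and 63.0 for H1 RNAi, all lower, and with quantile normalization they were 65.6, 66.6 and 78.9 against 64.2, 64.2 and 63.4. Most of that sum was exd. The 29 genes other than exd, odd and hh together came to 2.68, 3.97 and 1.82 TPM in the controls and 2.03, 1.85 and 2.05 TPM in H1 RNAi, with overlap as deposited.

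**Figure D1:**
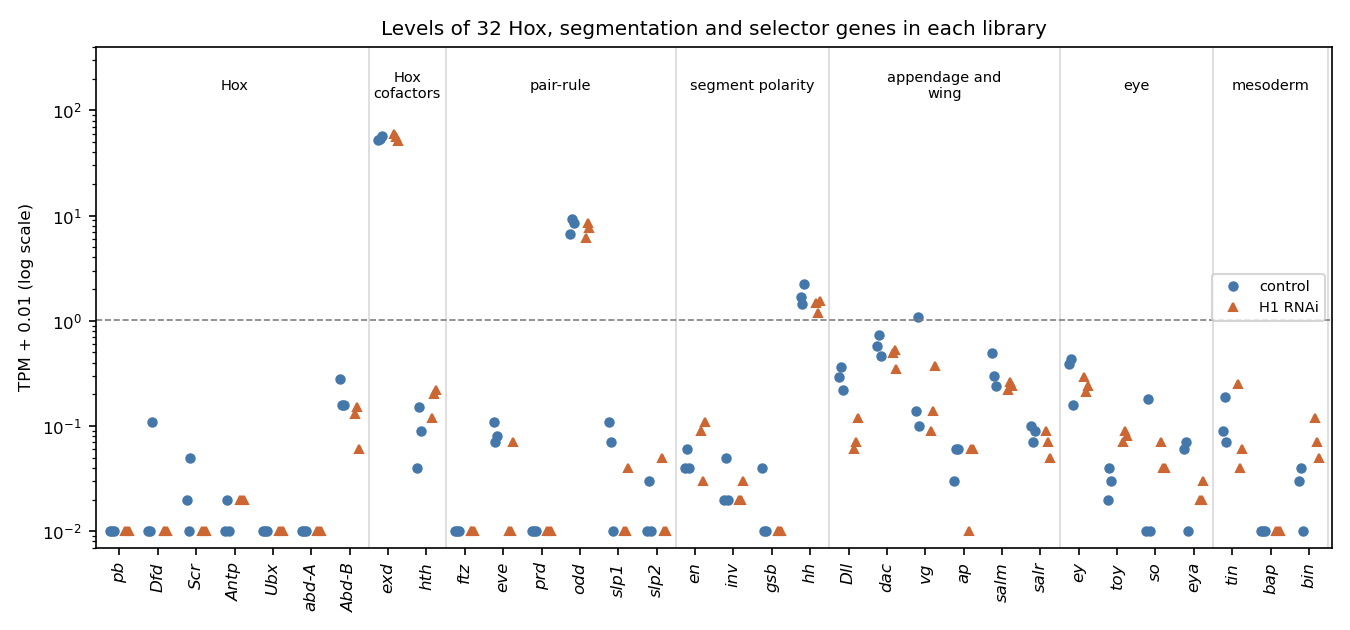
Each column is 1 gene of the set, ordered by role, and each point is 1 library (circles control, triangles H1 RNAi). The vertical axis is TPM + 0.01 on a log scale, so genes listed at 0 sit at the lowest level drawn, and the dashed line marks 1 TPM. Only exd, odd and hh lie above the line in all 6 libraries, and vg crosses it in control B alone.

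Of the 7 Hox genes, 3 were listed at 0 in all 6 libraries and all 7 stayed at 0.27 TPM or less. The genes at 0 were pb, which specifies mouthparts, Ubx, which specifies the third thoracic segment, and abd-A, which acts in the abdomen. Dfd, a head Hox gene, was listed at 0.1 TPM in control C and at 0 in the other 5 libraries. Scr, which acts in the labial and first thoracic segments, was at 0.01 TPM in control A and 0.04 TPM in control C and at 0 elsewhere. Antp, the Hox gene of the second thoracic segment, was at 0.01 TPM in control B and in each H1 RNAi library and at 0 in control A and C. A value of 0.01 TPM is the smallest that the rounding of the table can show, so these entries are at the edge of what was recorded. No Hox gene that was at 0 in all 3 control libraries was above 0 in an H1 RNAi library.

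Abd-B, the most posterior Hox gene (3R, 16927212 to 16972236 on the minus strand, BDGP6), was the most abundant of the 7. It was at 0.27, 0.15 and 0.15 TPM in control A, B and C and at 0.12, 0.14 and 0.05 TPM in H1 RNAi A, B and C. All 3 H1 RNAi values lay below the control values, by as little as 0.01 TPM between the closest libraries. The group means were 0.190 ± 0.0693 and 0.103 ± 0.0473 TPM (SD, n = 3 per group). Most of the set lies under the floor of the standard test, which was fitted with limma on log2(TPM + 1) for the 8124 genes at 1 TPM or more in at least 3 libraries. A low-level test was therefore fitted with limma on log2(TPM + 0.1) for the 10538 genes at 0.1 TPM or more in at least 3 libraries. There limma estimated -0.52 ± 0.40 (SE) for the log2 fold change of Abd-B, at an adjusted p of 0.501, with a 95% interval of -1.46 to 0.43. The lncRNA CR46267, which overlaps Abd-B on the opposite strand, was at 0 in every library.

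Levels were low over both Hox clusters. Between Ubx and Abd-B (3R, 16656623 to 16972236) the annotation places 15 genes of the table, and 14 of them were at 0 in all 6 libraries, including the noncoding RNAs bxd, iab4 and iab8. Between lab and Antp (3R, 6661427 to 6999228) 40 of 44 genes stayed under 1 TPM in every library. The 4 that were tested there gave 0 calls in either direction. Of these, lab, the Hox gene of copper cells and not one of the 33, was at 9.90, 8.87 and 7.45 TPM in the controls and 9.35, 7.65 and 7.63 TPM in H1 RNAi. The groups overlapped, and the log2 fold change of lab was -0.08 ± 0.15 (SE, adjusted p = 0.798, limma). Ama, which encodes a secreted immunoglobulin protein and lies between bcd and Dfd, was at 0.40, 0.82 and 0.38 TPM in the controls and 1.49, 1.15 and 1.18 TPM in H1 RNAi. Its groups did not overlap, but it did not pass (log2 fold change 0.58, adjusted p = 0.151, limma). The low-level test put the log2 fold change of Ama at 1.18 ± 0.38 (SE, adjusted p = 0.143, limma), and it did not pass there. The noncoding gene CR42651, near Dfd, did the reverse, at 4.60, 4.50 and 5.37 TPM in the controls and 4.25, 3.67 and 3.23 TPM in H1 RNAi, and did not pass either (log2 fold change -0.31, adjusted p = 0.308, limma). The last of the 4, the noncoding gene CR45915, lies within CR42651 on the opposite strand. It was at 7.97, 5.68 and 10.27 TPM in the controls and 9.64, 14.6 and 10.2 TPM in H1 RNAi, with overlap. It did not pass (log2 fold change 0.49, adjusted p = 0.262, limma). The embryonic patterning genes zen, zen2 and bcd of the same cluster were at 0.03 TPM or less.

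The 2 cofactors that help Hox proteins bind DNA were at very different levels. The gene exd (X, 15992468 to 15996509), whose homeodomain protein pairs with Hox proteins, was the highest of the set. It was at 52.27, 53.70 and 57.65 TPM in the controls and 59.86, 56.06 and 51.38 TPM in H1 RNAi, with full overlap. The means were 54.5 ± 2.79 and 55.8 ± 4.25 TPM (SD, n = 3 per group). The log2 fold change was 0.03 ± 0.10 in the standard test (SE, adjusted p = 0.889, limma), with a 95% interval of -0.22 to 0.28, and its sign turned with the scaling (-0.11 with TMM scaling, -0.08 with quantile normalization). Its partner hth, which carries Exd into the nucleus, was at 0.03 to 0.14 TPM in the controls and 0.11 to 0.21 TPM in H1 RNAi. In the low-level test hth had the largest positive coefficient of the 10 genes tested, 0.58 ± 0.41 (SE, adjusted p = 0.463, limma), with overlapping groups. In the controls only the value of 0.14 TPM reached the floor of that test, so hth entered it through its H1 RNAi values.

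Among the 6 pair-rule genes with a row, which divide the embryo into alternating units, only odd was clearly expressed. The zinc-finger gene odd (2L, 3604224 to 3606756) was at 6.67, 9.29 and 8.40 TPM in the controls and 6.12, 8.40 and 7.64 TPM in H1 RNAi. The groups overlapped, and the log2 fold change was -0.12 ± 0.17 in the standard test (SE, adjusted p = 0.718, limma), with a 95% interval of -0.53 to 0.29. Its relatives drm and sob, also zinc-finger genes of the odd-skipped family, were expressed as well. The group means of drm were 43.5 TPM in the controls and 50.3 TPM in H1 RNAi, and those of sob 10.8 and 9.27 TPM. Neither passed. The homeobox genes ftz and prd were at 0 in all 6 libraries. The homeobox gene eve was at 0.06 to 0.1 TPM in the controls and at 0, 0 and 0.06 TPM in H1 RNAi, so that the groups touched at 0.06 TPM. The forkhead genes slp1 and slp2 were at 0.1 TPM or less in every library.

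Of the 4 segment polarity genes, hh alone was above 0.1 TPM in any library. This gene (3R, 23128169 to 23141906) encodes the secreted ligand Hedgehog and is the one gene of the set that encodes a signal and not a regulator of transcription. It was at 1.67, 1.45 and 2.21 TPM in the controls and 1.48, 1.17 and 1.52 TPM in H1 RNAi. The H1 RNAi values were on the low side with overlap, and the log2 fold change was -0.21 ± 0.19 (SE, adjusted p = 0.543, limma), with a 95% interval of -0.66 to 0.24. Of 12 tested genes of the Hedgehog pathway (13 listed), 0 rose and 0 fell. An unadjusted p under 0.05 was given for 3, beside 23.8% of all genes tested (limma). Named after their values were seen, these were smo and rasp, with higher means in H1 RNAi, and boi, with a lower mean. Their control and H1 RNAi means were 5.13 and 7.83 TPM (smo), 10.9 and 13.9 TPM (rasp), and 10.7 and 4.85 TPM (boi). The most abundant pathway genes were dally, a glypican, with means of 29.8 TPM in the controls and 26.7 TPM in H1 RNAi, and Su(fu), an inhibitor of the pathway, with 26.1 and 28.7 TPM. The homeobox paralogs en and inv, which switch on hh in the embryo, were at 0.02 to 0.1 TPM and 0.01 to 0.04 TPM over the 6 libraries. The Pax gene gsb was at 0.03 TPM in control A and at 0 elsewhere.

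The 6 genes of appendage and wing fields all had a lower mean in H1 RNAi than in control, and none passed. Dll (2R, 24814822 to 24835667), the homeobox gene that directs the outer parts of legs and antennae, was at 0.28, 0.35 and 0.21 TPM in the controls and 0.05, 0.06 and 0.11 TPM in H1 RNAi. Every H1 RNAi value was below every control value, and the means were 0.280 ± 0.0700 and 0.0733 ± 0.0321 TPM (SD, n = 3 per group). In the low-level test the log2 fold change of Dll was -1.13 ± 0.37 (SE, unadjusted p = 0.0190, adjusted p = 0.152, limma), with a 95% interval of -2.01 to -0.25. In H1 RNAi only the value of 0.11 TPM reached the floor of that test. Dll thus entered it through its control values, the group where it was high, and its p and interval are given as description only. Markers of enteroendocrine cells, which make peptide hormones, were also lower in sum. The 7 markers, pros, Tk, NPF, AstC, Mip, Dh31 and Rab3, summed to 2270 to 3050 TPM in the controls and 1020 to 1530 TPM in H1 RNAi, mostly NPF and Tk, with none at 0. Of the 7, 2 (Tk and NPF) fell in the standard test, 4 were lower in every H1 RNAi library and 1 (Mip) higher. The list had 1 call with TMM scaling or quantile normalization and 0 on leaving out any 1 library other than control B. The 5 neuronal markers summed to 17.7 to 19.5 TPM in the controls and 11.5 to 14.0 TPM in H1 RNAi. The part of these cells in the lower values of Dll and Abd-B was not tested.

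The other appendage and wing genes overlapped between the groups. The nuclear factor gene dac, used in legs and eyes, was at 0.45 to 0.72 TPM in the controls and 0.34 to 0.52 TPM in H1 RNAi, and its low-level estimate was -0.30 ± 0.35 (SE, log2 scale). The zinc-finger paralogs salm and salr were at 0.21 to 0.48 TPM and 0.04 to 0.09 TPM over the 6 libraries. The LIM-homeobox gene ap, which marks the dorsal wing, was at 0.05 TPM or less. The wing gene vg was at 0.13, 1.08 and 0.09 TPM in the controls and 0.08, 0.13 and 0.36 TPM in H1 RNAi. Control B alone was above 1 TPM, the library that also had the high Yp1 value and ovary marker sum. Whether the vg value of control B is tied to them was not tested. The log2 fold change of vg was -0.48 ± 0.77 with all libraries and 0.35 ± 0.53 without control B (SE, low-level test). Its DNA-binding partner sd was expressed, with means of 44.4 TPM in the controls and 50.2 TPM in H1 RNAi.

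The 4 genes of the eye network stayed at 0.42 TPM or less in every library. The Pax gene ey (chromosome 4) was at 0.38, 0.42 and 0.15 TPM in the controls and 0.28, 0.20 and 0.23 TPM in H1 RNAi, with overlap. Its paralog toy, which acts upstream of ey in the eye (chromosome 4, 989725 to 1007922), was at 0.01, 0.03 and 0.02 TPM in the controls and 0.06, 0.08 and 0.07 TPM in H1 RNAi. Here all H1 RNAi values were above all control values, at levels of a few hundredths of 1 TPM. The gene lies under the floor of both tests. Fitted with every gene above 0 in any library, an alternative added after the data were seen for this gene, limma put its log2 fold change at 0.50 ± 0.22 on the TPM + 0.1 scale, with an adjusted p of 0.3. The nearest gene before toy, fuss, 11236 bp away and named after its values were seen, was at 0.23, 0.59 and 0.37 TPM in the controls and 0.79, 1.01 and 0.80 TPM in H1 RNAi. Its groups did not overlap either, and it did not pass (log2 fold change 1.02 ± 0.39, SE, adjusted p = 0.195, limma, low-level test). The homeobox gene so and its partner eya were at 0.17 TPM or less and 0.06 TPM or less. The highest value of so was again that of control B.

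The mesoderm genes bear on visceral muscle, which surrounds the gut and could be carried into a sort. The homeobox gene bap, which acts in the embryonic visceral mesoderm, was at 0 in every library. The homeobox gene tin, needed for heart and visceral mesoderm, was at 0.06 to 0.18 TPM in the controls and 0.03 to 0.24 TPM in H1 RNAi, with equal means of 0.107 TPM. The forkhead gene bin, which acts with bap in visceral mesoderm (3L, 6990622 to 6994447), was at 0.02, 0.03 and 0 TPM in the controls and 0.11, 0.06 and 0.04 TPM in H1 RNAi. Its groups did not overlap, and it lies under the floor of both tests. The limma fit with every gene above 0 was added after the data were seen for this gene too. It put the log2 fold change of bin at 0.53 ± 0.26 (SE, TPM + 0.1 scale), with an adjusted p of 0.348. Markers of visceral muscle were low in both groups. The 12 markers, among them Mhc, sls and Mlc2, summed to 4.16 to 7.78 TPM in the controls and 4.24 to 7.30 TPM in H1 RNAi, with overlap, 9 of them stayed under 1 TPM in every library and none was at 0 throughout. Of the 12, only wupA, a troponin gene, was higher in every H1 RNAi library. Their part in the values of bin was not tested.

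**Figure D2:**
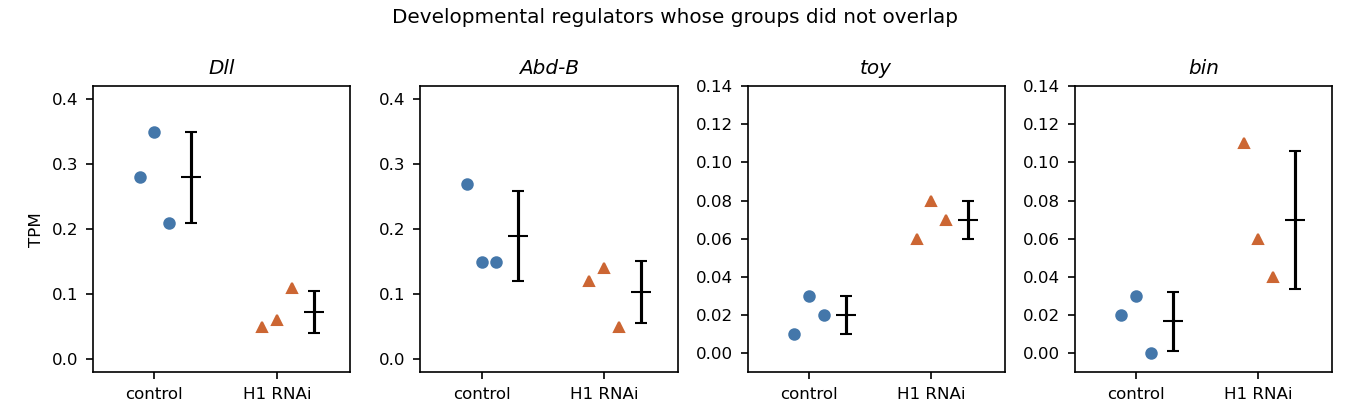
TPM of Dll, Abd-B, toy and bin by library (circles control, triangles H1 RNAi), with the mean and SD of each group as black bars (n = 3). Dll and Abd-B were lower and toy and bin higher in all H1 RNAi libraries, and toy and bin are drawn on a scale that ends at 0.14 TPM.

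Set against the whole table, the tests made few calls in general and none in the set. In the standard test limma called 230 of 8124 genes (2.83%) at the 0.05 level, of which 185 (2.28% of those tested) rose and 45 (0.554%) fell with H1 RNAi. The 3 genes of the set that were tested, exd, odd and hh, gave 0 calls and 0 unadjusted p under 0.05. At that background, 0 of 3 is not a result about the set. The split of higher and lower calls over all genes depended on scaling, with 85 higher and 55 lower under TMM scaling and 85 higher and 59 lower under quantile normalization. Scaling also moved the centre of the table, from a median log2 fold change of 0.14 as deposited to 0.00 with TMM. In the low-level test 190 of 10538 genes passed (1.8%), of which 156 rose (1.48%) and 34 fell (0.323%), with 89 higher and 45 lower under TMM scaling and 107 higher and 57 lower under quantile normalization. The 10 genes of the set at that floor gave 0 calls and 1 unadjusted p under 0.05, that of Dll, which met the floor through its control values. Their median log2 fold change was -0.31 beside 0.13 for all genes tested, and 8 of the 10 coefficients were negative. A median over genes that pass a floor describes those 10 and not the set. The intervals were wide. Among the genes of the 10 other than Dll that lay under 1 TPM on average, the upper bound of the log2 fold change ranged from 0.43 for Abd-B to 1.56 for hth.

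**Figure D3:**
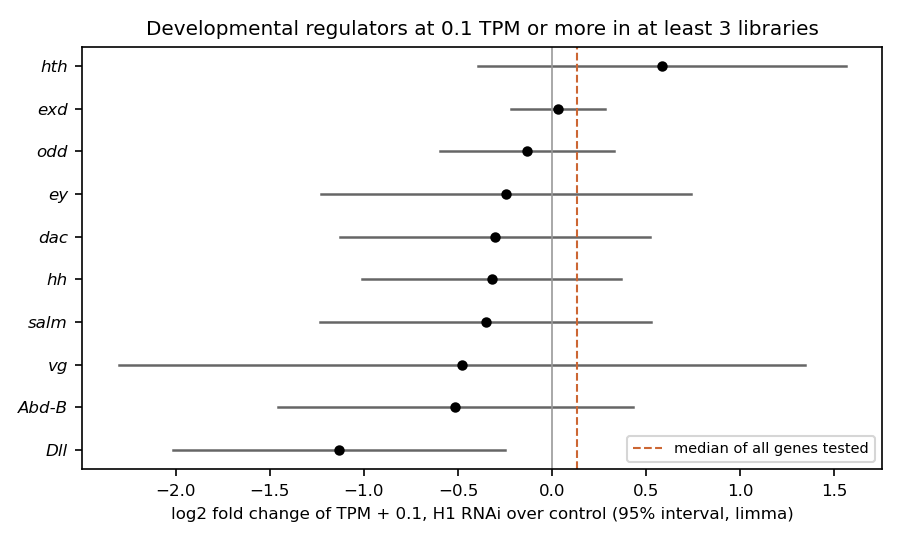
Log2 fold change of TPM + 0.1, H1 RNAi over control, for the 10 genes of the set at 0.1 TPM or more in at least 3 libraries. Points are limma coefficients and lines their 95% intervals. The interval of Dll lies below 0 before adjustment, all others include 0, and the dashed line is the median of all genes tested, 0.13. Dll met the floor through its control values and hth through its H1 RNAi values.

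The question whether silent developmental genes were switched on was put to raw values as well, without a test. Genes were counted whose 3 H1 RNAi values all lay above the 3 control values. In the set these were toy and bin, 2 of the 26 genes above 0 in any library, where the share over all such genes was 16.6%. The reverse pattern was seen for Dll and Abd-B, 2 of 26, where the share over all genes was 5.93%. Such shares depend on level, so they were also taken within ranges of mean TPM. Under 0.1 TPM, 2 of 15 genes of the set were higher without overlap and 0 lower, beside 2.4% and 1.91% of all genes in that range. Between 0.1 and 1 TPM, 0 of 8 were higher and 2 lower, beside 9.55% and 9.47% of all genes. At 1 TPM or more, exd, odd and hh all overlapped, where 24.1% of all genes were higher and 6.33% lower. With counts of 0 to 2, nothing is read from these shares about the set. Without control B, 5 genes were higher and 5 lower without overlap, and without control C 2 were higher and 7 lower. With TMM scaling 5 were lower. The shares over all genes were not taken for these settings, and with a library left out fewer values have to separate. Nothing is read from these counts about the set. The group mean was lower in H1 RNAi for 18 of the 26 genes (69.2%), higher for 7 and equal for 1, while over all genes above 0 it was lower for 40.6%. Among genes above 0 with a mean under 1 TPM, it was lower for 16 of 23 genes of the set (69.6%) and for 51.6% of all genes. These shares were not tested.

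A gene was called switched on when it was under 0.5 TPM in all control libraries and at 1 TPM or more in all H1 RNAi libraries. Of 8392 genes that were this low in control, 29 were switched on (0.346%), to H1 RNAi means between 1.15 and 67.2 TPM. In the set 27 genes were this low in the controls and 0 were switched on. The reverse switch occurred for 4 of 8551 genes (0.0468%) and for 0 of 28 in the set. With a lower bar, from under 0.1 TPM to at least 0.5 TPM, 21 of 6304 genes were switched on (0.333%) and 0 of 17 in the set, while 3 of 6471 were switched off (0.0464%) and 0 of 19 in the set. At these background rates, 0 among so few genes is not a result about the set. The highest H1 RNAi value of any gene of the set other than exd, odd and hh was the 0.52 TPM of dac, a gene that was at 0.45 TPM or more in every control library.

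**Figure D4:**
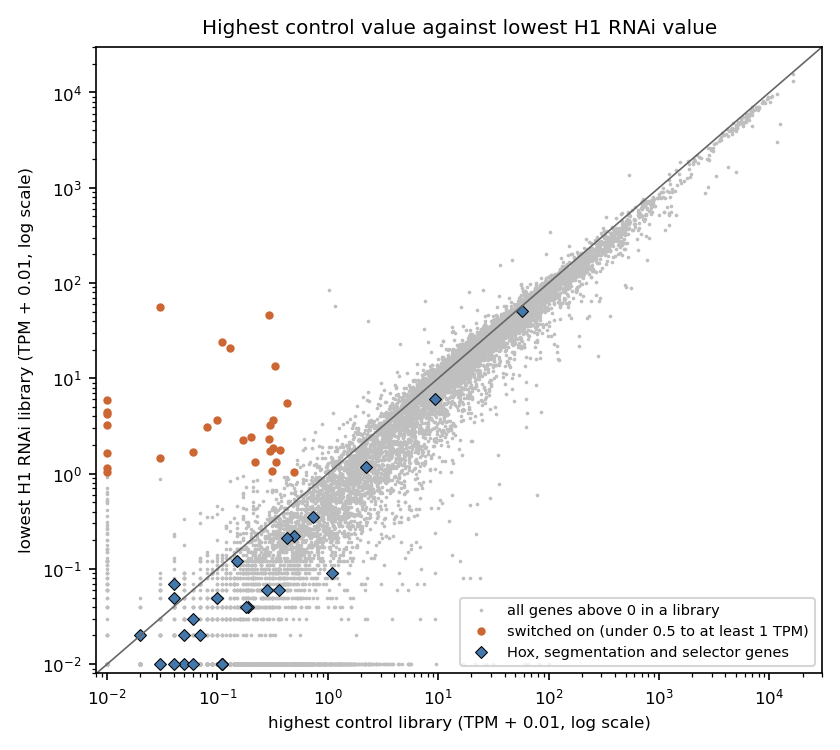
Each point is a gene above 0 in at least 1 library, placed by its highest control value and its lowest H1 RNAi value (TPM + 0.01, both axes on log scales). Points above the line are higher in every H1 RNAi library than in any control library. The 29 switched-on genes are drawn in orange and the genes of the set as blue diamonds, of which toy and bin lie above the line, at less than 0.1 TPM.

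Other developmental regulators were described by list, in the standard test. Of 42 further homeobox, Pax, T-box, GATA and related genes, 33 stayed under 1 TPM in every library, 9 of them at 0 throughout, and of the 7 tested 0 rose and 0 fell. The gut GATA factor GATAe had means of 157 TPM in the controls and 164 TPM in H1 RNAi, and the forkhead gene fkh 141 and 144 TPM. Of 17 other segmentation genes, 7 were tested, 0 rose and 1 fell. That gene was mirr, a homeobox gene of the Iroquois family, at 4.79, 4.60 and 6.29 TPM in the controls and 2.17, 1.81 and 2.30 TPM in H1 RNAi. Its groups did not overlap, and limma put its log2 fold change at -1.0 ± 0.18 (SE, adjusted p = 0.0418). The list had 0 calls with quantile normalization and on leaving out any 1 library other than control B. Of 11 partners of Hox and selector proteins, 7 were tested with 0 calls, the highest being the corepressors CtBP (means 141 and 140 TPM) and gro (67.7 and 67.0 TPM). The zinc-finger genes tsh and tio, which act with Hox genes in the trunk and were picked out after their values were seen, were lower in every H1 RNAi library, with means of 0.967 and 0.5 TPM for tsh and 0.520 and 0.250 TPM for tio, and did not pass the low-level test. None of these lists had a gene that was switched on. Without overlap, 0 partners were higher and 2 lower, 0 and 3 of the homeobox and related genes, and 1 and 1 of the other segmentation genes. Over all genes above 0 in any library, 16.6% were higher and 5.93% lower in this way. Nothing is read from these counts about the lists.

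The regulators that hold such genes silent or active were at 1 TPM or more in at least 3 libraries each. All 18 Polycomb group genes with a row were tested and 0 rose and 0 fell, with 2 unadjusted p under 0.05 and a median log2 fold change of 0.13 beside 0.14 for all genes. The highest were Caf1-55, a histone chaperone subunit shared with other complexes (means 38.4 and 44.2 TPM), and Jarid2 (35.6 and 34.8 TPM). All 13 Trithorax group genes were tested with 0 calls and a median of -0.01, the highest being the chromatin remodeller kis (means 118 and 99.5 TPM) and ash2 (72.6 and 75.2 TPM). The genes next to or overlapping the set, 70 in number and not among the 33, had 18 tested members with 0 calls in either direction and a median log2 fold change of 0.06. Of the 70, 34 were at 0 in all 6 libraries. A further 3 were higher in every H1 RNAi library (CG31457, unk and fuss) and 3 lower (CR42651, tou and vlc), named after their values were seen. Over all genes above 0 in any library, 16.6% were higher and 5.93% lower in this way. Nothing is read from these counts about the neighbours.

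In order of median level over the 6 libraries, exd, odd and hh came first and their ranges did not overlap with one another or with that of dac, the fourth. From dac downward, each gene overlapped the next in the order, so no ranking among the remaining 23 genes above 0 is drawn from these data.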

How the data were processed

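RNA was prepared with a PicoPure kit and libraries with a stranded mRNA kit, per the labels. The authors deposited TPM values per gene and library, rounded to 2 decimals, and each column sums to 1000000. The submitters' processing notes name bcl2fastq and dm6. The aligner, counting tool, annotation and handling of strand are unknown here (not given in the sources used here), and overlapping genes on opposite strands may share reads. TPM keeps no depth, so no counting error can be given. Symbols were found for 17710 of 17807 identifiers, and positions, 1-based, come from Ensembl release 115 on BDGP6, the dm6 sequence. Sequences of the genes are not used here.

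The 3 H1 RNAi and 3 control libraries were compared with limma 3.58.1 in R 4.3.3 (mean trend, robust moderation, Benjamini-Hochberg at 0.05 over all genes tested). The standard test used log2(TPM + 1) for genes at 1 TPM in at least 3 libraries and the low-level test log2(TPM + 0.1) for genes at 0.1 TPM in at least 3. Fold changes on these scales understate those of low genes. Genes at 0 or under a floor were described by their values. The procedure was checked on simulated data. Recovery of changed genes was scored there only well above 1 TPM, so the check does not cover most of the set. Other work used Python 3.11.15, pandas 2.3.3, numpy 2.4.6 and matplotlib 3.10.9.

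The genes, lists and tests were chosen with earlier results of these data known. A gene of the set was given by library when its mean was 1 TPM or more in a group, its groups did not overlap or it passed a test. The genes Dfd, Scr, Antp, eve, gsb, vg, ey, sd, zen, zen2, bcd, CR42651 and CR45915 are given outside that rule, with their values known. From other lists the genes that passed and the 2 of highest mean were named. Alternatives were other pseudocounts and filters, TMM scaling (trims 0.3 and 0.05), quantile normalization, no trend, a block on the letters A, B and C, and each library left out in turn.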

Additional observations from a re-analysis of the deposited data

How the results depend on the processing

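No gene of the set passed either test as run or under any alternative, where the filters left it in the test. Over all genes, the standard test made 230 calls, 90 with no filter on low values, 140 with TMM scaling, 144 with quantile normalization and 29 to 450 with 1 library left out, and the low-level test 190 calls and 42 to 450. The count moved by over 1.5 times without any 1 of the 6 libraries in both tests and was highest without control B. Sums over the set were 67.3 TPM for the controls and 66.5 TPM for H1 RNAi, and 70.9 and 63.2 with TMM scaling and 70.4 and 63.9 with quantile normalization, where every H1 RNAi library was below every control library. Without exd the sums were 12.7 and 10.8 TPM. Genes higher without overlap numbered 2, and 2 to 5 with a library left out. Genes lower without overlap numbered 2, 5 with TMM scaling and 2 to 7 with a library left out. The shares over all genes were not taken for these alternatives, so nothing is read from these counts about the set. The sign of exd turned to -0.11 with TMM scaling and -0.076 with quantile normalization in the standard test, to -0.12 and -0.077 in the low-level test, and ran from -0.022 to 0.087 (standard) and -0.022 to 0.088 (low-level) with a library left out. That of vg ran from -0.96 to 0.35 with a library left out. The adjusted p of Dll was 0.0654 to 0.401 over its alternatives in the low-level test. With unknown depth, a difference of a few hundredths of 1 TPM cannot be set against counting error.

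With the replicate letter as a block, the standard test made 142 calls and none in the set. The share of genes with an unadjusted p under 0.05 was 23.8% without the block and 28.2% with it (limma). Libraries of the same letter had correlations of their deviations of 0.40 (A), 0.14 (B) and 0.09 (C), all positive. Whether the letters pair the samples is not settled by these data, and the main tests did not use pairing. Of the 6 correlations between different letters, 5 were negative (lowest -0.28), and control B correlated best with H1 RNAi C (0.17).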
